A study of Rattus norvegicus with 12 samples.

Results

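Crem, Sik1, Pim1, Inhba and Ptgs2 are 5 genes known as targets of the transcription factor CREB. Their products act back on CREB signalling or in other signalling within or between cells. All probe sets of the array whose single annotated gene symbol is one of these names were taken, which gave 8 probe sets of the 15866 tested, for 5 of the 10411 genes named by a probe set with a single symbol: 3 for Crem, 2 for Sik1 and 1 each for Pim1, Inhba and Ptgs2. CREB itself was not assayed, so the name describes what is known of the genes and not a measurement. The values come from 12 Affymetrix rat arrays of cultured ventral midbrain cells. Per the labels, the cells came from CD1 rat embryos at day 12 and were grown for 6 days with bFGF (20 ng/ml) and SHH (50 ng/ml) and for 3 days without them. The first group was depolarized on day 9 with 56 mM KCl for 2 h and collected 30 min after a change of medium, and its controls were kept in control medium for the same time. The other depolarized group had the same 2 h in KCl and was collected 2 h after the change of medium, again with its own time-matched controls. Each of the 4 groups held 3 arrays, numbered 1 to 3 at 30 min and 4 to 6 at 2 h. Cells of the embryos of 4 pregnant rats were combined and split into 3 groups, and RNA of duplicate cultures was pooled, so the spread between arrays is that between pooled cultures and not between animals.

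Depolarization opens voltage-gated calcium channels, and calcium and cAMP then activate kinases that phosphorylate CREB. Phosphorylated CREB, helped by CRTC coactivators, binds the cAMP response element (CRE) and switches on immediate-early genes, neuropeptides and growth factors in neurons. Among its targets are genes that limit the response: Crem gives rise, from an internal promoter, to the repressor ICER, and the kinase Sik1 phosphorylates CRTC coactivators and so keeps them out of the nucleus. Pim1 encodes a serine/threonine kinase that favours cell survival, Inhba the subunit of the secreted growth factor activin A, and Ptgs2 cyclooxygenase 2, which makes prostaglandin precursors from arachidonic acid.

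The upstream sequences of these genes are shown because the CRE is the element through which CREB is known to act. In the RefSeq promoter table (build GRCr8) all 5 genes had an entry, with 3 listed starts for Crem and 1 for each of the others. The 250 bases before each start were searched on both strands for the palindrome TGACGTCA and for its shorter form TGACG or CGTCA, which every TGACGTCA also contains. Over all 33469 windows of that length in the table, 531 (1.59%) held the palindrome and 6097 (18.2%) held the shorter form. Capitals mark the matches in the lines that follow.
Crem, chr17:58984711-58984778, plus strand: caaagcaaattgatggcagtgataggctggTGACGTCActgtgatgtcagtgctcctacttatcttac
Crem, chr17:58985425-58985489, plus strand: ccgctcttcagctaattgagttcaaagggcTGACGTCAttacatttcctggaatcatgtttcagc
Sik1, chr20:9958792-9958867, minus strand: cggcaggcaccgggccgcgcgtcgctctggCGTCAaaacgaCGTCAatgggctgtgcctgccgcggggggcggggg
The palindrome of the first line begins 56 bases before the Crem start at position 58984797, and that of the second begins 35 bases before the start at position 58985490. Both starts lie inside the annotated span of Crem (chr17:58932011-59001160). The outermost listed start of Crem, at position 58934066, had 2 matches to the shorter form, which began 241 and 6 bases before it, and no palindrome. For Sik1 (chr20:9947104-9958729) the 2 matches began 191 and 180 bases before its listed start. Neither set of letters occurred in the windows of Pim1 (chr20:7556496-7560747), Inhba (chr17:53787159-53810942) or Ptgs2 (chr13:64714063-64722320). The listed start of Inhba, at position 53804508 on the minus strand, lies inside its annotated span. The bases before the outer end of that span were therefore not searched. A match is a string of letters and not a binding site, and the absence of one says only that these letters are not in this window.

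The correlation over all probe sets was 0.9957 to 0.9979 within groups and 0.9717 to 0.9922 between them, and no arrays held the same values. The values are log2 expression per probe set from RMA, an array summary method, and lay between 4.41 and 14.58. A value of 1 probe set cannot be set against that of another, since brightness also depends on the probe. The table holds no detection calls. Of the listed cell type markers 51 of 58 were measured. The means of the dopaminergic markers that were measured (8 of 10) lay between the percentiles 19.5 (Pitx3) and 72.0 (Foxa2) of all probe sets, with Th at 39.5. Those of the 7 measured neuronal markers lay between 59.35 (Rbfox3) and 98.8 (Gap43). The fibroblast markers lay between 91.3 (Dcn) and 99.2 (Col3a1), and the progenitor markers between 72.1 (Mki67) and 99.8 (Vim). Astrocyte markers lay between 31 (Slc1a2) and 97.8 (Slc1a3), and oligodendrocyte lineage markers between 12.3 (Mog) and 91.2 (Olig1). The microglial markers ranged from 6.81 (Ptprc) to 45.6 (Aif1), and the endothelial and mural ones from 5.94 (Pecam1) to 61.5 (Acta2). In RNA of a whole culture, fewer cells of a type and less RNA per cell cannot be told apart.

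Depolarization was followed at 30 min by small rises of Sik1, Ptgs2, Pim1 and Crem. At these 4 genes 5 of the 8 probe sets rose and 0 fell, with fold changes of 1.21 to 1.33. A change means an adjusted p below 0.05 in limma's two-sided moderated test, adjusted by Benjamini-Hochberg across the 15866 probe sets tested. The background was 10.8% of all probe sets higher and 13.1% lower. The median log2 difference was 0.28 over the 8 probe sets, against 0.01 over all. In 7 of the 8 probe sets the 3 depolarized arrays all lay above the 3 controls, as they did in 17.9% of all probe sets. The counts over all probe sets were 1720 higher and 2085 lower at this time, and centring each array on its median turned this into 2339 higher and 1631 lower.

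At 2 h after the end of depolarization the same 4 genes were higher than in their time-matched controls, by 1.16- to 1.44-fold, at 4 probe sets, and 0 were lower. Of all probe sets 9.51% were higher and 15.7% lower. The median log2 difference was 0.21 over the 8 probe sets, against -0.00 over all. All 3 depolarized arrays lay above all 3 controls in 4 of the 8, against 15.4% of all probe sets. Over all probe sets limma called 1509 higher and 2492 lower, and with median centring 2014 higher and 1903 lower.

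**Figure D1:**
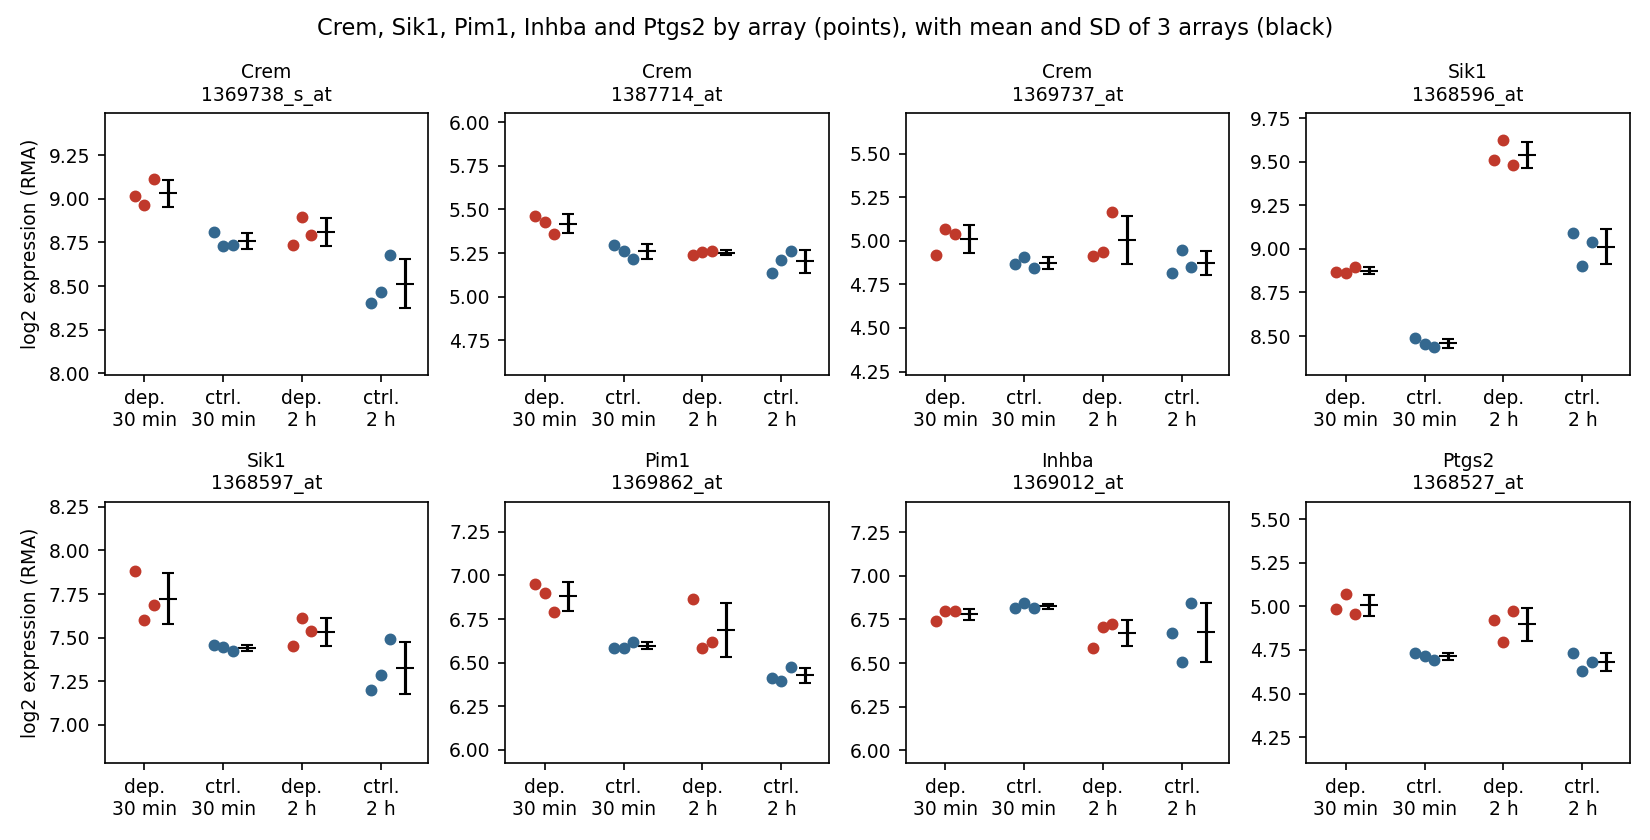
Log2 expression of the 8 probe sets in each of 12 arrays (points: red depolarized, blue control), with the group mean and SD of 3 arrays in black. All panels span the same number of log2 units. The Sik1 probe set 1368596_at separates the 4 groups completely, and the Inhba probe set shows the depolarized and control arrays at nearly the same level.

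Sik1 had the largest response of the 5 genes at its probe set 1368596_at. Its level was 8.87, 8.86 and 8.90 in the depolarized arrays at 30 min, against 8.49, 8.45 and 8.44 in controls. Every depolarized array was above every control. The difference was 0.42 log2 units (SE 0.06, 95% interval 0.28 to 0.55), a 1.33-fold rise (limma, adjusted p = 0.000149). At 2 h the level was 9.51, 9.63 and 9.48 in depolarized arrays, against 9.09, 8.90 and 9.04 in controls. Again the groups did not overlap, and the difference was 0.53 (SE 0.06, interval 0.39 to 0.66), or 1.44-fold (limma, adjusted p = 3.08e-05). These calls held when any of the 12 arrays was left out, with adjusted p of at most 0.0012 at 30 min and 0.000289 at 2 h. The order of the group means was depolarized 2 h, control 2 h, depolarized 30 min and control 30 min, with no overlap between neighbours. The depolarized arrays at 30 min were thus below the controls of the later collection.

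The other Sik1 probe set, 1368597_at, gave a weaker picture of the same gene. It stood at 7.88, 7.60 and 7.69 in depolarized arrays at 30 min, against 7.46, 7.44 and 7.42 in controls. The controls were nearly identical, the first depolarized array was well above the other depolarized ones, and the groups did not overlap. The rise was 0.28 (SE 0.08), or 1.22-fold (limma, adjusted p = 0.0206). It missed the threshold without the depolarized array 1 (0.20, adjusted p = 0.103), the control array 2 (adjusted p = 0.0535) or the control array 3 (adjusted p = 0.0644). The 2 h readings were 7.45, 7.61 and 7.54 in depolarized arrays, against 7.20, 7.29 and 7.49 in controls. The highest control lay within the depolarized range, and the difference of 0.21 (SE 0.08) missed the threshold (limma, adjusted p = 0.0842). It passed without the control array 6 (0.29, adjusted p = 0.0195) and with median centring (0.25, adjusted p = 0.0388). Across the 12 arrays the Sik1 probe sets correlated at only 0.0873 (Pearson). The annotation used here does not say which transcripts each of them reads.

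Crem, whose products include activators and repressors of cAMP-responsive transcription, was brightest at the probe set 1369738_s_at; the suffix marks probes that can match several related transcripts. Its level was 9.02, 8.96 and 9.11 in depolarized arrays at 30 min, against 8.81, 8.73 and 8.74 in controls. All depolarized arrays exceeded all controls, by a mean of 0.27 log2 units (SE 0.08, interval 0.11 to 0.43), or 1.21-fold (limma, adjusted p = 0.0143). The call was lost without the depolarized array 3 (0.23, adjusted p = 0.0667) or the control array 2 (0.26, adjusted p = 0.0531). Its 2 h level was 8.74, 8.90 and 8.79 in depolarized arrays, against 8.40, 8.46 and 8.68 in controls. The groups were again separate, with the third control close below the depolarized arrays, and the difference was 0.29 (SE 0.08, interval 0.13 to 0.46), or 1.23-fold (limma, adjusted p = 0.00921). It was lost without the control array 4 (0.24, adjusted p = 0.0528), and the mean of the Crem probe sets gave 0.16 (adjusted p = 0.0504).

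Both other Crem probe sets were dim and neither passed the test at either time. For 1387714_at the depolarized arrays at 30 min read 5.46, 5.43 and 5.36, against 5.30, 5.26 and 5.22 in controls. Each depolarized array was above each control, but the difference of 0.16 (SE 0.06) gave an adjusted p of 0.064 in limma, and it passed with median centring (0.21, adjusted p = 0.0177), with array weights (adjusted p = 0.021) and with a trended, robust prior (adjusted p = 0.0195). At 2 h its depolarized arrays read 5.24, 5.26 and 5.26, against 5.13, 5.21 and 5.26 in controls, a difference of 0.05 (limma, adjusted p = 0.606). The highest control matched the highest depolarized array. The probe set 1369737_at differed by 0.14 at 30 min (limma, adjusted p = 0.222) and by 0.13 at 2 h (limma, adjusted p = 0.212). Of all 15866 probe sets, 654 had a lower mean than 1387714_at and 247 a lower mean than 1369737_at, so these values lie near the lower end of the table.

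Pim1, the survival kinase, read 6.95, 6.90 and 6.79 in depolarized arrays at 30 min, against 6.58, 6.59 and 6.62 in controls (1369862_at). The groups did not overlap, and the rise was 0.28 log2 units (SE 0.07, interval 0.13 to 0.44), or 1.22-fold (limma, adjusted p = 0.00997). Leaving out any 1 array kept this call, with adjusted p of at most 0.0413. Collected at 2 h, Pim1 read 6.87, 6.58 and 6.62 in depolarized arrays, against 6.41, 6.39 and 6.48 in controls. The first depolarized array stood above the other depolarized ones, all of which were above the controls, and the difference was 0.26 (SE 0.07), or 1.20-fold (limma, adjusted p = 0.0169). That call was lost without the depolarized array 4 (0.17, adjusted p = 0.104), the control array 4 (adjusted p = 0.0523) or the control array 5 (adjusted p = 0.0613).

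Inhba, the activin A subunit, was the gene of the 5 that passed the test at neither time. It read 6.74, 6.80 and 6.80 in depolarized arrays at 30 min, against 6.82, 6.84 and 6.82 in controls (1369012_at). The depolarized arrays were all slightly below the controls, by 0.05 log2 units on average (95% interval of the difference -0.21 to 0.12; limma, adjusted p = 0.756). Collected at 2 h, Inhba read 6.59, 6.71 and 6.73 in depolarized arrays, against 6.67, 6.51 and 6.85 in controls. The controls enclosed the depolarized arrays, and the difference was -0.00 (interval -0.17 to 0.16; limma, adjusted p = 0.982). These intervals leave room for a rise of up to 0.12 log2 units at 30 min and 0.16 at 2 h, and do not show that the level was unchanged.

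Ptgs2, the inducible cyclooxygenase, read 4.99, 5.07 and 4.96 in depolarized arrays at 30 min, against 4.73, 4.71 and 4.69 in controls (1368527_at). The groups did not overlap. The rise was 0.29 log2 units (SE 0.06, interval 0.16 to 0.43), or 1.23-fold (limma, adjusted p = 0.00256), and it was called whichever array was left out, with adjusted p of at most 0.0178. At 2 h it read 4.92, 4.79 and 4.97 in depolarized arrays, against 4.73, 4.63 and 4.68 in controls. All depolarized arrays were again higher, by 0.22 (SE 0.06), or 1.16-fold (limma, adjusted p = 0.0202). This was lost without the depolarized array 4 (adjusted p = 0.0706), the depolarized array 6 (adjusted p = 0.0823) or the control array 5 (adjusted p = 0.0813). Ptgs2 was among the dimmest probe sets, with 144 of 15866 below it, and at such levels a change in transcript can give a smaller change in signal. Without detection calls, how much of its signal is background cannot be told. An annotated antisense neighbour, Ptgs2os, was looked up after these values were seen and differed by 0.01 at 30 min (limma, adjusted p = 0.962) and by 0.05 at 2 h (limma, adjusted p = 0.678).

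**Figure D2:**
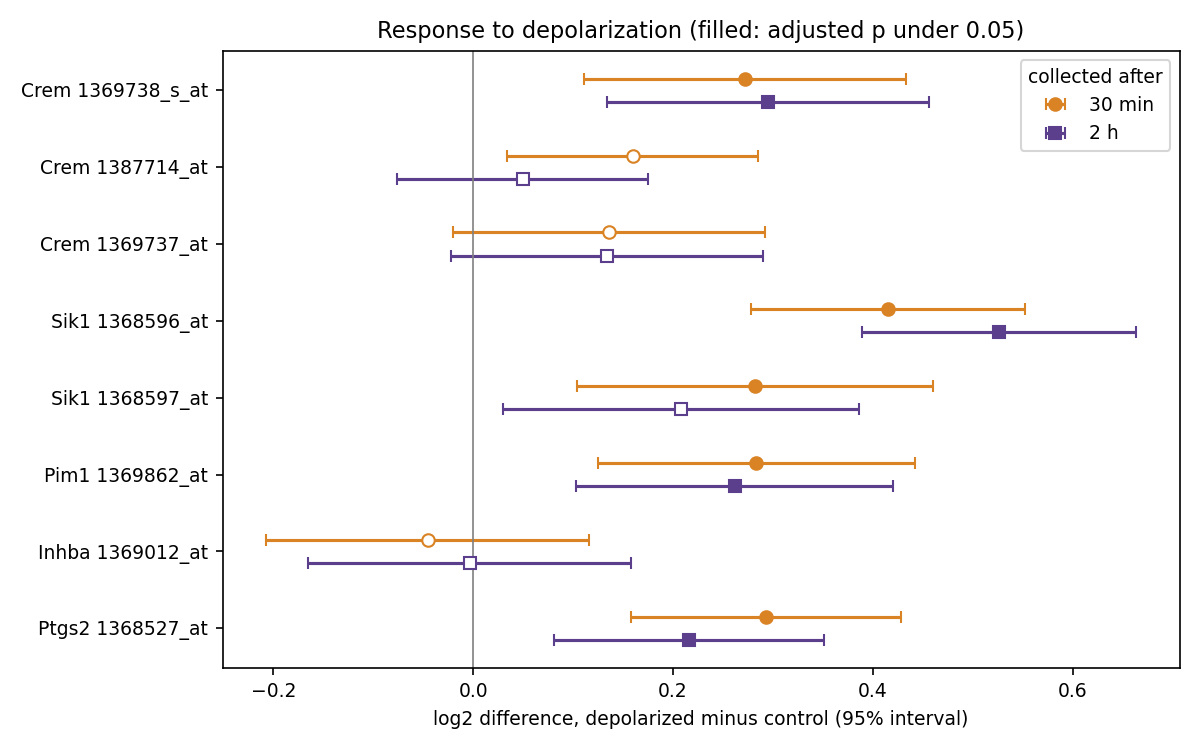
Log2 difference of depolarized minus control arrays for the 8 probe sets, with the 95% interval of the fit, at 30 min (circles) and 2 h (squares). Filled symbols have an adjusted p under 0.05; 5 are filled at 30 min and 4 at 2 h, and the intervals of both times overlap for every probe set.

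The response of these genes at 2 h was not distinguishable from that at 30 min. The difference between the responses passed the test for 0 of the 8 probe sets, none of which had an unadjusted p below 0.05, while 13% of all probe sets passed in either direction. For Sik1 (1368596_at) the response was larger at 2 h by 0.11 log2 units, with an interval of -0.08 to 0.31 (limma, adjusted p = 0.525). For Crem (1369738_s_at) it differed by 0.02 (interval -0.20 to 0.25), for Pim1 by -0.02 (interval -0.25 to 0.20) and for Ptgs2 by -0.08 (interval -0.27 to 0.11). Intervals that span 0 do not show that the responses were equal.

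The controls themselves differed between the collections at a probe set of Sik1 and a probe set of Crem, and so did the baseline of those responses. Among controls Sik1 was higher at 2 h than at 30 min by 0.55 (SE 0.06) at 1368596_at (limma, adjusted p = 6.9e-06) and Crem was lower by a log2 difference of -0.24 at 1369738_s_at (limma, adjusted p = 0.0197). These were the only 2 of 8 probe sets called, against 35.3% of all probe sets in either direction. The Crem call was lost without control array 1 (adjusted p = 0.0691), 4 (adjusted p = 0.101) or 5 (adjusted p = 0.0718). For Pim1 all controls at 2 h lay below all controls at 30 min, with a difference of -0.17 that missed the threshold (limma, adjusted p = 0.0899). Inhba differed by -0.15 (limma, adjusted p = 0.139), and by -0.23 without the control array 6 (adjusted p = 0.0189). Ptgs2 differed by -0.03 (limma, adjusted p = 0.708). The other Sik1 probe set, 1368597_at, went the opposite way from 1368596_at, by -0.12, and was not called (limma, adjusted p = 0.299).

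Among depolarized arrays, 3 of the 8 probe sets differed between the times, against 41% of all. Sik1 was higher at 2 h than at 30 min by 0.66 (SE 0.06) at 1368596_at, a 1.58-fold difference (limma, adjusted p = 8.66e-07). Crem was lower at 2 h at both 1369738_s_at (-0.22, adjusted p = 0.0286) and 1387714_at (-0.17, adjusted p = 0.0351). The first Crem call was lost without any of 4 arrays, with adjusted p of up to 0.109 without the depolarized array 4, and the other without any of 5 arrays, with adjusted p of up to 0.105 without the depolarized array 1. Pim1 differed by -0.19 (limma, adjusted p = 0.0515), a call gained without the depolarized array 4 (-0.28, adjusted p = 0.0058). Ptgs2 differed by -0.11 (limma, adjusted p = 0.18). At 1368597_at Sik1 differed in the opposite direction from 1368596_at, by -0.19 (limma, adjusted p = 0.0827). Without the depolarized array 2 that difference was -0.25 (adjusted p = 0.0433).

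**Figure D3:**
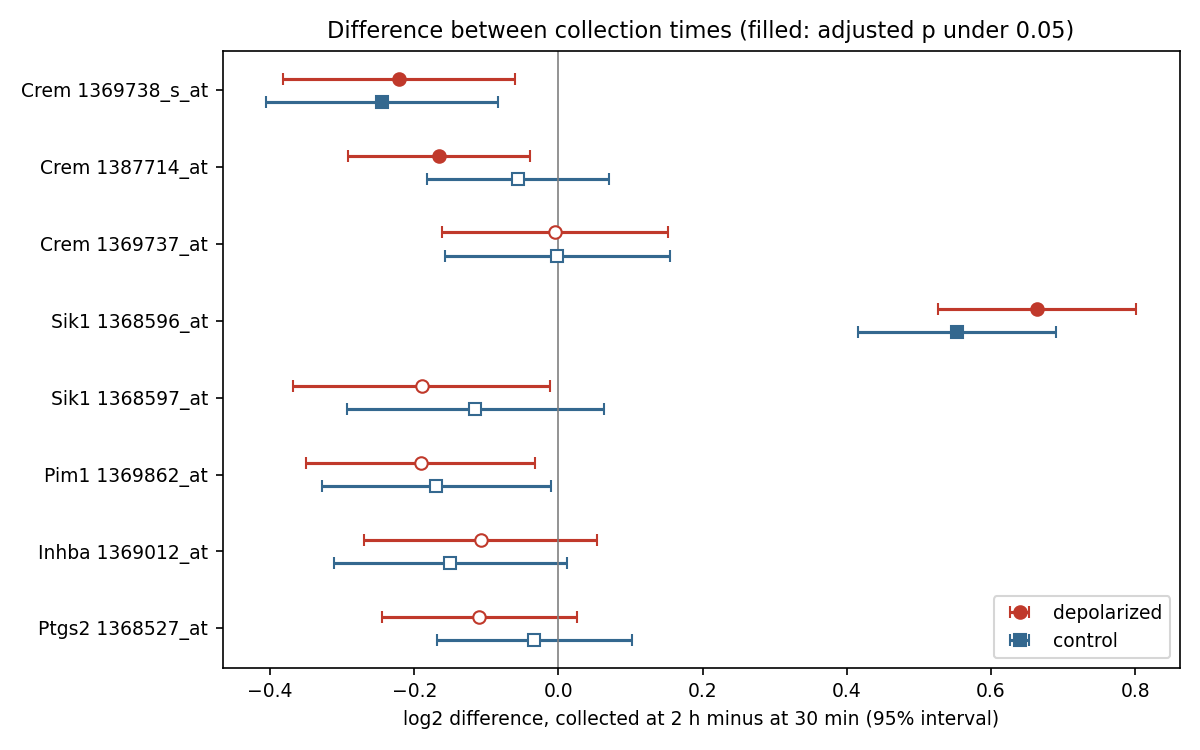
Log2 difference of arrays collected at 2 h minus those collected at 30 min for the 8 probe sets, with 95% intervals, in depolarized arrays (circles) and controls (squares). Filled symbols have an adjusted p under 0.05; only the Sik1 probe set 1368596_at has intervals wholly above 0, in both conditions.

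The call at 2 h depended on which controls were used for Crem and Pim1, and not for Ptgs2 and the brighter Sik1 probe set. This comparison with the controls of the other collection was added after the data were seen. Against the 30 min controls, the depolarized arrays at 2 h differed by 0.05 for Crem at 1369738_s_at (limma, adjusted p = 0.653) and by 0.09 for Pim1 (limma, adjusted p = 0.37), with overlapping arrays. Ptgs2 was still higher, by 0.18 (limma, adjusted p = 0.0334), and Sik1 at 1368596_at by 1.08 (limma, adjusted p = 9.04e-09). The size for Sik1 did depend on the controls, since the matched controls gave 0.53. In the other direction, the depolarized arrays at 30 min set against the 2 h controls gave -0.14 for Sik1 at 1368596_at (limma, adjusted p = 0.085), where the matched controls gave a rise.

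Markers of cell types moved with the collection time as well, where 35.3% of all probe sets differed between the control times in either direction. In controls 7 of 7 neuronal markers were higher at 2 h than at 30 min, with a median of 0.91 log2 units. Of the dopaminergic markers 6 of 8 were higher (median 0.70). Lower were 4 of 5 progenitor markers (median -0.64) and 4 of 5 oligodendrocyte lineage markers (median -0.22, with Olig1 at -2.45). Of the astrocyte markers 3 of 7 were lower, and of the fibroblast markers 1 of 5. Among 6 endothelial and mural markers 1 was higher and 1 lower, and 0 of 8 microglial markers passed. The mean log2 level of the 7 neuronal markers ranged over 11.17 to 11.21 in depolarized arrays and 11.10 to 11.16 in controls at 2 h. At 30 min it ranged over 10.33 to 10.42 in depolarized arrays and 10.09 to 10.31 in controls. Their part in the differences of Sik1 and Crem between the times was not tested. The labels do not say whether both collections came from the same preparation, so time, preparation and hybridization cannot be told apart.

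With treatment fewer markers moved. The shares over all probe sets were 10.8% higher and 13.1% lower at 30 min, and 9.51% and 15.7% at 2 h. At 30 min 1 of 7 neuronal markers (Nefm, 0.65), 2 of 8 dopaminergic markers (Nr4a2, 0.87, and Foxa2, 0.29) and 1 of 8 microglial markers (Cd68, 0.38) were higher in depolarized arrays. The oligodendrocyte lineage gene Pdgfra (-0.58) and the mural cell gene Pdgfrb (-0.34) were lower, and 0 of 7 astrocyte, 0 of 5 progenitor and 0 of 5 fibroblast markers passed. At 2 h Nefm (0.39) and Nefl (0.43) of the 7 neuronal markers and 3 of 8 dopaminergic markers were higher, while Aldh1a1 (-0.59) of the dopaminergic list was lower. Sox2 (0.31) was higher and Top2a (-0.33), Pdgfra (-0.75) and Pdgfrb (-0.24) were lower, and 0 of 8 microglial, 0 of 7 astrocyte and 0 of 5 fibroblast markers passed. Ptgs2 is readily induced in microglia, and the summed linear level of the 8 microglial markers was 1282 to 1494 in depolarized arrays at 30 min and 1251 to 1319 in controls. At 2 h it was 1234 to 1372 in depolarized arrays and 1157 to 1247 in controls. Their part in the difference of Ptgs2 was not tested.

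The lists of related genes, like the 5 genes, were chosen with earlier results of these data known, each gene at its brightest probe set. Of 28 measured targets, 21 rose at 30 min and 0 fell, with a median of 1.01 (all probe sets: 10.8% and 13.1%). At 2 h 22 were higher and 0 lower, with a median of 0.75 (9.51% and 15.7%). Fos, a component of the AP-1 factor, was at 11.05 ± 0.18 in depolarized arrays at 30 min and 6.99 ± 0.04 in controls (SD, n = 3 each), and its difference was 3.39 at 2 h and 4.06 at 30 min. Fosb differed by 3.14 at 2 h and 1.77 at 30 min, and the phosphatase gene Dusp1 by 0.32 at 2 h and 1.91 at 30 min. The difference between the times passed the test for all 3 of these, by -0.67 for Fos, 1.37 for Fosb and -1.59 for Dusp1 (limma, adjusted p = 0.00104, 6.72e-05 and 1.18e-07). The tyrosine hydroxylase gene Th, which like Nr4a2 stands in both the target and the dopaminergic list, was among those that did not pass at either time.

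**Figure D4:**
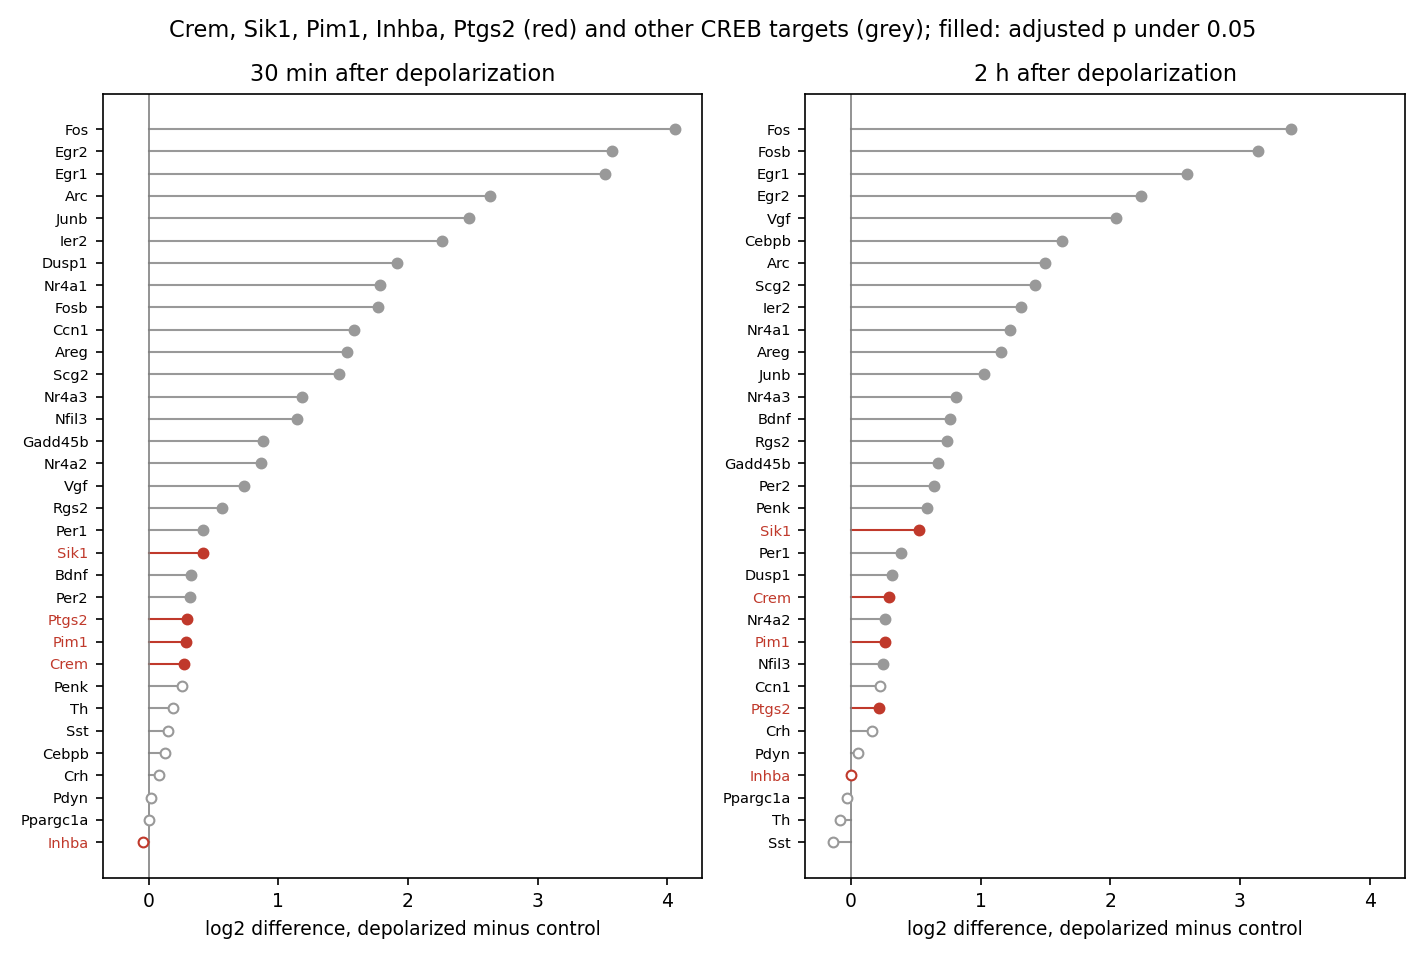
Log2 difference of depolarized minus control arrays at 30 min (left) and 2 h (right) for Crem, Sik1, Pim1, Inhba and Ptgs2 (red) and the 28 other measured CREB targets (grey), each at its brightest probe set. Filled points have an adjusted p under 0.05. The red points sit in the lower part of both panels, with Sik1 highest among them.

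Of 9 measured genes of the CREB family and its coactivators, 4 rose and 1 fell at 30 min (all probe sets: 10.8% and 13.1%). At 2 h 1 was higher and 2 were lower (9.51% and 15.7%). Atf2, a CREB-related factor, rose by 0.67 at 30 min (limma, adjusted p = 8.27e-05). Ep300, a histone acetyltransferase that CREB recruits, rose by 0.44 at 30 min (limma, adjusted p = 0.000285) and was lower at 2 h (-0.34, adjusted p = 0.0031). The 2 h call of Ep300 was lost with probe sets averaged by gene (-0.15, adjusted p = 0.118) and with the 30 min controls (-0.13, adjusted p = 0.181). The coactivator gene Crtc3, which encodes a substrate of SIK kinases, read 8.32, 8.38 and 8.39 in depolarized arrays at 30 min, against 8.82, 8.79 and 8.82 in controls. That is a fall to well below the controls (-0.44, limma, adjusted p = 3.17e-05), while at 2 h the difference was 0.10 and did not pass. Crtc2 rose at 30 min by 0.37 (limma, adjusted p = 0.0107), a call lost without the control array 1 (0.27, adjusted p = 0.0664). Creb1 passed at neither time (0.23 at 30 min and -0.28 at 2 h). Its 2 h value passed with a replicate block (adjusted p = 0.0381), without the depolarized array 5 (-0.35, adjusted p = 0.0465) and without the dimmest 50% of probe sets (adjusted p = 0.0496). Its 30 min value passed with probe sets averaged by gene (0.29, adjusted p = 0.0022).

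Of 26 measured genes of cAMP and calcium signalling upstream of CREB, 1 was higher and 2 lower at 30 min (all probe sets: 10.8% and 13.1%). At 2 h 1 was higher and 9 were lower (9.51% and 15.7%). The calcineurin subunit gene Ppp3cb rose by 0.52 at 30 min (limma, adjusted p = 0.00011). Adcyap1r1, the PACAP receptor, was lower at both times (-0.39 and -0.40, adjusted p = 7e-04 and 0.00069), but with probe sets averaged by gene its 2 h difference was -0.14 (adjusted p = 0.19). The cAMP phosphodiesterase gene Pde4d was higher at 2 h (0.41, adjusted p = 0.00206), and against the 30 min controls by 0.17 (adjusted p = 0.142). Against the controls of the other collection Ppp3cb gave -0.20 at 30 min.

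Among 13 SIK and PIM kinases and their partners, 3 rose and 0 fell at 30 min (all probe sets: 10.8% and 13.1%). At 2 h 6 were higher and 2 lower (9.51% and 15.7%). Pim3 read 9.54, 9.43 and 9.35 in depolarized arrays at 30 min, against 9.07, 9.17 and 9.16 in controls. Its groups did not overlap, and it was higher by 0.31 at 30 min and 0.33 at 2 h (limma, adjusted p = 0.00429 and 0.00296). Sik3 was higher at 2 h by 0.74 (limma, adjusted p = 2.54e-05), and Sik2 did not pass at either time, though at 30 min it did without the depolarized array 3 (-0.30, adjusted p = 0.02). Cdkn1a, the cell cycle inhibitor p21 and a known PIM substrate, was higher at 2 h by 0.80 (limma, adjusted p = 1.05e-05), and Mef2c, a transcription factor held in check by the class IIa deacetylases that SIKs phosphorylate, by 0.55 (adjusted p = 0.00181).

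Other genes of the activin and inhibin pathway passed the test. Of 15 measured, 5 rose and 3 fell at 30 min (all probe sets: 10.8% and 13.1%). At 2 h 5 were higher and 0 lower (9.51% and 15.7%). Inhbb, the activin B subunit, read 7.53, 7.80 and 7.72 in depolarized arrays at 30 min, against 8.61, 8.47 and 8.53 in controls. It fell far below the controls with no overlap (-0.85, limma, adjusted p = 2.86e-05). At 2 h it read 8.97, 8.51 and 8.76 in depolarized arrays, against 8.32, 8.09 and 7.95 in controls, now higher by 0.63 (limma, adjusted p = 0.000645). Against the 30 min controls the 2 h difference of Inhbb was 0.21 (adjusted p = 0.156). Fst, which encodes the activin-binding inhibitor follistatin, was higher at both times (0.49 and 0.67, adjusted p = 5.97e-05 and 8.1e-06). Smad3, a transducer of activin signals, was lower at 30 min (-0.68, adjusted p = 7.81e-06) and higher at 2 h (0.34, adjusted p = 0.00424), where the 30 min controls gave -0.0581 (adjusted p = 0.61).

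Few other genes of the prostaglandin pathway passed, with 0 of 15 higher and 1 lower at 30 min (all probe sets: 10.8% and 13.1%). At 2 h 1 was higher and 1 lower (9.51% and 15.7%). The called gene at 30 min was Ptges2, a prostaglandin E synthase, which was lower at both times (-0.24 and -0.47, adjusted p = 0.0168 and 0.000154). Its 30 min call was lost without the depolarized array 1 (adjusted p = 0.0639), the depolarized array 3 (adjusted p = 0.0806) or the control array 1 (adjusted p = 0.0629), with array weights (adjusted p = 0.0604) and with median centring (adjusted p = 0.06), and against the 30 min controls the 2 h difference was -0.16 (adjusted p = 0.0914). Hpgd, which degrades prostaglandins, was higher at 2 h by 0.58 (limma, adjusted p = 0.000164). Its 30 min difference of 0.23 missed the threshold (limma, adjusted p = 0.0645). It passed with median centring (adjusted p = 0.0336), quantile normalization (adjusted p = 0.0326), probe sets averaged by gene (adjusted p = 0.00907) and other settings. Tbxas1 differed by 0.23 at 30 min (limma, adjusted p = 0.0896) and passed with median centring (adjusted p = 0.0362) and quantile normalization (adjusted p = 0.0363). Ptgs1, the constitutive cyclooxygenase, differed by -0.05 at 30 min and 0.04 at 2 h, and neither passed.

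Over the 12 arrays, the brightest probe set of each of the 5 genes was correlated with every single-symbol probe set of other genes. Each other gene was kept at its best-correlating probe set, which favours high values. These correlations describe 12 arrays that share 4 groups, so they follow the group means, and no function is read from them. Sik1 was most like the secretory granule gene Scg2 (Pearson r = 0.980), Nkx6-1 (0.971) and Rem2 (0.970). Crem was most like Crk (0.955), H2ac1 (0.951) and Isl1 (0.943), and Pim1 like Irs1 (0.975), H4cl1 (0.965) and Ppp1r2 (0.961). Ptgs2 was most like the mitochondrial chaperone gene Hspa9 (0.970), Mafk (0.964) and the immediate-early gene Egr2 (0.961), although Egr2 rose by 3.57 at 30 min, against 0.29 for Ptgs2. Inhba was most like Snap29 (0.920), Tfpi (0.896) and Lmod3 (0.895). Among the 5 genes, Pim1 and Ptgs2 correlated at 0.853, Crem (1369738_s_at) at 0.912 with Sik1 1368597_at and at -0.00593 with Sik1 1368596_at.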

How the data were processed

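The deposited values are log2 summaries from RMA, as the submitters' processing notes state without a version. The log2 scale was read from the values, and which arrays were normalized together is not given in the sources used here. Of the probe sets, 57 array controls were left out. The platform annotation left 2771 probe sets without a symbol, and 12783 had 1 symbol and 312 more than 1. Arrays carry no read depth, and their number limits the precision.

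A model of 4 group means was fitted to all 12 arrays with limma 3.58.1 in R 4.3.3 (8 residual degrees of freedom, no block), tested on simulated data. P-values are two-sided and adjusted by Benjamini-Hochberg over 15866 probe sets at a threshold of 0.05. The labels name separate samples of pooled cultures, so p-values measure the spread between these.

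The genes and lists were chosen with earlier results of these data known. Every probe set of the 5 genes was named. For each related list up to 3 genes with the lowest p in either treatment comparison were named, with Creb1, Crtc2, Sik2, Pim3, Fst, Inhbb and Ptgs1, and for each of the 5 genes the 3 genes of highest correlation. Related genes (106 of 116 measured) and markers were taken at their brightest probe set. Markers named with treatment are those that passed, and Th was also named after its values were seen.

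Alternatives were quantile normalization, median centring, a fit of only the 6 arrays compared, a loess correction on mean level, leaving out the dimmest 25% or 50%, a trended and robust prior, array weights, a replicate block, probe sets averaged by gene, and each array left out. A reversal was counted only where the result passed under at least 1 of the settings compared.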

Additional observations from a re-analysis of the deposited data

Results flagged for a closer look

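No probe set of Crem, Sik1, Pim1, Inhba or Ptgs2 met a criterion for a closer look. Of the related genes given by name, 13 had responses that differed between the times in limma's test of the difference itself (2 h response minus 30 min response, log2). In the CREB family and its coactivators the difference was 0.54 for Crtc3 (adjusted p = 0.000398), -0.59 for Atf2 (adjusted p = 0.00909), -0.77 for Ep300 (adjusted p = 0.000123), -0.51 for Creb1 (adjusted p = 0.0388) and -0.46 for Crtc2 (adjusted p = 0.0385). For the calcineurin gene Ppp3cb it was -0.57 (adjusted p = 0.00254). Among other CREB targets it was -0.67 for Fos, -1.59 for Dusp1 and 1.37 for Fosb. Sik3 differed by 0.56 (adjusted p = 0.0065) and Cdkn1a by 0.57 (adjusted p = 0.00461). In the activin pathway Inhbb differed by 1.48 (adjusted p = 1.89e-05) and Smad3 by 1.02 (adjusted p = 2.11e-05), each higher in depolarized arrays than in controls at 2 h and lower at 30 min.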

How the results depend on the processing

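Of the values for single probe sets of the 5 genes under the alternatives, 764 kept their side of the threshold, 43 of these with a change of sign in a value called under neither setting, 32 lost the call, 18 gained one and 3 reversed. The probe sets called at 30 min numbered 3 without the dimmest 25% and 2 without the dimmest 50%, because only that many were left, and 3 to 5 with 1 array left out. At 2 h they numbered 2 under both filters, 2 with the controls of the other collection and 2 to 5 with 1 array left out. Between times the count ranged over 1 to 3 in depolarized arrays and 1 to 3 in controls with 1 array left out, and was 1 in controls with probe sets averaged by gene. Over all probe sets, 8260 were called at 30 min with the controls of the other collection, and 4269 between times in depolarized arrays without the dimmest 50%. Reversals came from averaging the Sik1 probe sets (1368597_at, 0.24 between times in depolarized arrays and 0.22 in controls), which mixes them by construction, and from the controls of the other collection. With those, the 30 min difference was -0.14 for Sik1 1368596_at, -0.20 for Ppp3cb, -0.22 for Sik3, -0.75 for Scg2, -0.19 for Nkx6-1, -0.0875 for Rem2 and 0.26 for Snap29. The 2 h difference was 0.66 for Ppp3cb, -0.0581 for Smad3, -0.33 for Tbxas1 and -0.30 for Snap29. By construction each is the matched difference shifted by the difference between the control collections. The cause of that shift was not tested. Deviations from the group mean correlated at -0.322 to 0.236 for same-numbered arrays and at -0.415 to 0.354 for differently numbered ones. With 3 arrays a group this cannot decide whether the numbers pair the arrays. With the replicate block 5 probe sets were called at 30 min, 4 at 2 h and 0 for the difference between responses. Among the named genes Creb1 at 2 h was gained with it (adjusted p = 0.0381). With 3 pooled cultures a group, differences of about 0.2 log2 units lay near the threshold.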
